A study of Homo sapiens with 6 samples.

Results

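FN1, LAMB1, LAMC1, NID1, THBS1, THBS2, TNC, SPARC, TGFBI and VCAN encode fibronectin, laminin chains with their linker, and matricellular and large proteoglycan proteins of the extracellular matrix. These 10 genes were taken by gene symbol from the 60666 genes that the deposited RNA-seq table places on chromosomes and unplaced contigs outside the alternative ones. The cells were hTERT-RPE1, a telomerase-immortalized line from human retinal pigment epithelium, carrying a lentiviral Tet-On cassette (hTERT-RPE1-TOShOFD1) whose short hairpin RNA against OFD1 is switched on by doxycycline. OFD1 encodes a centriolar satellite protein that the study ties to branching of actin filaments. Of the 6 samples, 3 grew for 72 h without doxycycline (genotype WT in the labels, control here) and 3 grew for 72 h with 200 ng/mL doxycycline (OFD1 knockdown, OFD1-depleted here). Every sample carried the cassette and grew in medium with serum, and no sample that received doxycycline without the hairpin was analysed here, so depletion of OFD1 and the drug itself cannot be told apart. The study's methods say that infected cells were selected with an antibiotic and do not say whether the line is 1 clone. Its legends call the 3 samples of a group biological replicates. The question addressed here is how expression of these matrix genes differed between OFD1-depleted and control cells.

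Fibronectin is secreted as a dimer and pulled into fibrils by cells through integrins. Laminins are trimers of an alpha, a beta and a gamma chain that form the sheet of a basement membrane, and nidogen-1 links the gamma-1 chain to collagen IV. Matricellular proteins, such as thrombospondins, tenascin-C and SPARC, are secreted into the matrix where they tune adhesion and signalling rather than build its scaffold. Versican is a hyaluronan-binding proteoglycan. The retinal pigment epithelium rests on a basement membrane to which its own laminins contribute.

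Values were FPKM, the fragments of a gene per kilobase of transcript and per mapped fragments of its library. OFD1 was 3.34, 3.62 and 3.44 FPKM without and 0.795, 0.763 and 1.43 FPKM with doxycycline, so its level matched the labels. Tests were run with limma on log2(FPKM + 0.1) in the 12025 genes that averaged 1 FPKM or more over the 6 samples, with Benjamini-Hochberg adjusted p-values over all of them and a threshold of 0.05. Of these genes, 17% passed the threshold, 5.07% (610 genes) higher and 11.9% (1429 genes) lower in OFD1-depleted cells. That split was 268 higher and 1988 lower after conversion to TPM, which gives every sample an equal sum and shifted the log2 median of all genes by -0.14, and 1093 higher and 1311 lower after quantile normalization. Depth, read from the step between low values of single-exon genes, was roughly 3.77e+07 to 4.42e+07 fragments per library. The keratins KRT7, KRT8 and KRT18 were expressed, the summed level of the 4 epithelial keratins being 275 to 293 FPKM in the controls and 310 to 443 FPKM after OFD1 depletion. Of 10 markers of retinal pigment epithelium only MITF and OTX2 reached a mean of 1 FPKM, RPE65 stayed at or below 0.209 FPKM, and the summed level was 7.44 to 7.85 FPKM in the controls and 9.92 to 12.4 FPKM after OFD1 depletion. Of the latter sums, that of replicate 2 held 4.33 FPKM of BEST1, a gene at or below 0.0475 FPKM in the other 5 libraries. The part of these shifts in the matrix genes was not tested. The photoreceptor genes CRX and SAG were listed at 0 in all 6 samples, as were the endothelial gene CDH5 and the leukocyte gene CD3E. The 5 endothelial markers summed to 0.756 to 1.23 FPKM, with KDR at or below 0.686 FPKM. The 5 leukocyte markers summed to 31.6 to 40.8 FPKM, nearly all of it CD68 (31.4 to 40.7 FPKM), a lysosomal gene. The labels give retina as the tissue and their extraction note describes dissected retinas, whereas the titles name the cell line.

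Among the 9 matrix genes that reached the level for testing, 3 matricellular genes rose in OFD1-depleted cells, and no gene of the set fell past the threshold. THBS1 rose 2.07-fold, TNC 1.79-fold and SPARC 1.48-fold. FN1, LAMB1, LAMC1, NID1, TGFBI and VCAN did not pass the test, with OFD1-depleted means between 77.4% and 98.1% of control. THBS2 was too low to be tested. The 3 rises are 3 of 9 genes tested, against 5.07% of all genes tested that were higher past the threshold. These genes and the related lists below were chosen with earlier results of these data known, so such shares are descriptions only. The groups did not overlap in 4 of the 9 (THBS1, TNC, SPARC and NID1), against 36.1% of all genes tested. The median log2 fold change was -0.08 over the 9 genes and -0.03 over all genes tested. In bulk RNA, a change in the share of cells expressing a gene and a change in RNA per cell cannot be told apart.

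Per length, fibronectin was by far the most abundant of these transcripts. In control samples the order of levels was FN1, SPARC, THBS1, TGFBI, VCAN, LAMB1, LAMC1, TNC, NID1 and THBS2, from 1765 ± 383 FPKM for FN1 to 9.38 ± 1.52 FPKM for NID1 (SD, n = 3), with THBS2 near 0. The 3 control values of neighbours in this order overlapped only between LAMB1 and LAMC1. FN1 alone made up 55.0% to 61.3% of the summed FPKM of the 10 genes in control and 44.6% to 51.4% in OFD1-depleted samples. Among all genes outside the mitochondrial genome, FN1 ranked 7, 18 and 7 in the control and 8, 33 and 6 in the OFD1-depleted replicates.

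THBS1 (ENSG00000137801, GRCh38 chromosome 15 from 39581079 to 39599466, + strand) encodes thrombospondin-1, a trimeric glycoprotein that binds CD47 and can activate latent TGF-beta. It was 220, 203 and 260 FPKM in control replicates 1, 2 and 3 and 537, 355 and 522 FPKM in OFD1-depleted replicates 1, 2 and 3, the order kept for every gene. Every OFD1-depleted value lay above every control value, and replicate 2 was the lowest of each group. The mean rose from 227 ± 29.3 to 471 ± 101 FPKM (mean ± SD over 3 replicates). The log2 fold change was 1.04 (standard error 0.18, 95% interval 0.64 to 1.43, limma adjusted p = 0.00251). A two-sided exact permutation test gave p = 0.1, the smallest that 3 against 3 samples allow, as it did for TNC, SPARC and NID1. Of the alternatives tried, only the fit of all 28501 genes above 0, with no filter on low values, left THBS1 short of the threshold (limma adjusted p = 0.0527), and neither TNC nor SPARC passed in that fit.

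The transcript of THBS1 shares its locus with short noncoding genes whose values were also higher after OFD1 depletion. AC037198.1, on the same strand inside the THBS1 gene, was 1.82, 0.551 and 1.15 FPKM in the controls and 5.11, 4.05 and 6.25 FPKM after OFD1 depletion. AC037198.2, on the opposite strand, was 1.22, 0.639 and 0.917 FPKM in the controls and 3.40, 1.69 and 4.11 FPKM after OFD1 depletion. The log2 fold change of AC037198.1 was 2.15 (limma adjusted p = 0.00148). AC037198.2 averaged under 1 FPKM in the controls and reached the level for testing only through its OFD1-depleted values. Its log2 fold change of 1.58 is therefore given without a test. Both genes were named after their values were seen. How fragments were divided between these genes and THBS1 is not given in the sources used here, so these values are uncertain. FSIP1, also antisense, stayed at or below 0.646 FPKM.

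THBS2 (ENSG00000186340, chromosome 6 from 169215780 to 169254050, - strand) encodes thrombospondin-2, a paralog of thrombospondin-1 with the same domain plan. It was 0.126, 0 and 0.0827 FPKM in the controls and 0, 0.181 and 0.0644 FPKM after OFD1 depletion. Both groups reached 0 and overlapped, and THBS2 was not tested. At the estimated depth its highest value corresponds to about 45.6 fragments, where the 9 tested genes had between about 1609 (NID1) and 693259 (FN1) fragments in their lowest and highest library.

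TNC (ENSG00000041982, chromosome 9 from 115019575 to 115118257, - strand) encodes tenascin-C, a hexameric glycoprotein that binds fibronectin and is laid down in wounds and developing tissue. It was 29.3, 17.2 and 28.1 FPKM in the controls and 50.6, 32.9 and 50.0 FPKM after OFD1 depletion. The groups did not overlap, the highest control value (29.3) lying just below the lowest OFD1-depleted value (32.9). The mean rose from 24.9 ± 6.66 to 44.5 ± 10 FPKM (mean ± SD over 3 replicates). The log2 fold change was 0.85 (standard error 0.222, 95% interval 0.36 to 1.34, limma adjusted p = 0.0236). The call was lost without control replicate 2 (adjusted p = 0.0818), without OFD1-depleted replicate 1 (0.0815) and without OFD1-depleted replicate 3 (0.0785). It was also lost after TPM scaling (0.0665), scaling without mitochondrially encoded genes (0.0681) and in limma without the trend (0.0546), with TNC higher in OFD1-depleted cells throughout.

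SPARC (ENSG00000113140, chromosome 5 from 151661096 to 151686975, - strand) encodes osteonectin, a collagen-binding protein that weakens cell adhesion. It was 561, 468 and 545 FPKM in the controls and 799, 756 and 775 FPKM after OFD1 depletion. The OFD1-depleted values were close together and all above the control values. The mean rose from 525 ± 49.6 to 777 ± 21.7 FPKM (mean ± SD over 3 replicates). The log2 fold change was 0.57 (standard error 0.139, 95% interval 0.26 to 0.88, limma adjusted p = 0.0168). The call was lost without control replicate 1 (adjusted p = 0.0622), control replicate 3 (0.0656) or OFD1-depleted replicate 1 (0.0683). Quantile normalization brought the log2 fold change down to 0.32 (adjusted p = 0.138).

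TGFBI (ENSG00000120708, chromosome 5 from 136028988 to 136063818, + strand) encodes a secreted adhesion protein named for its induction by TGF-beta. It was 155, 138 and 166 FPKM in the controls and 141, 127 and 138 FPKM after OFD1 depletion. The groups overlapped, and unlike the other 3 tested matricellular genes TGFBI was lower on average, at 88.4% of control. The log2 fold change was -0.17 (95% interval -0.46 to 0.11, limma adjusted p = 0.399).

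FN1 (ENSG00000115414, chromosome 2 from 215360440 to 215436073, - strand) was 1849, 1347 and 2099 FPKM in the controls and 1863, 1199 and 1907 FPKM after OFD1 depletion. The 2 groups covered nearly the same range, and replicate 2 was the low sample of each. The means were 1765 ± 383 FPKM without and 1656 ± 397 FPKM with depletion (SD, n = 3 each), and the fitted difference was -0.10 on the log2 scale (standard error 0.225, limma adjusted p = 0.807). The 95% interval ran from -0.59 to 0.40. The direction turned to 0.12 without OFD1-depleted replicate 2 and to 0.04 without control replicate 3.

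The laminin chains LAMB1 and LAMC1 were at similar levels and showed no change past the threshold. LAMB1 (ENSG00000091136, chromosome 7 from 107923799 to 108003213, - strand), the beta-1 chain, was 87.9, 84.4 and 92.2 FPKM in the controls and 95.3, 66.1 and 91.6 FPKM after OFD1 depletion. LAMC1 (ENSG00000135862, chromosome 1 from 183023420 to 183145592, + strand), the gamma-1 chain, was 82.5, 69.2 and 87.0 FPKM in the controls and 88.3, 57.0 and 89.0 FPKM after OFD1 depletion. For both, OFD1-depleted replicate 2 was the lowest of all 6 samples and the groups overlapped. The log2 fold changes were -0.08 (95% interval -0.42 to 0.26) for LAMB1 and -0.05 (95% interval -0.45 to 0.35) for LAMC1, with limma adjusted p = 0.761 and 0.881. Without OFD1-depleted replicate 2 both were higher in OFD1-depleted cells, at 0.08 and 0.16. DLD, which overlaps LAMB1 on the opposite strand, was expressed at 22.6 to 28.9 FPKM. LAMC1-AS1, antisense to LAMC1, stayed at or below 1.15 FPKM.

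NID1 (ENSG00000116962, chromosome 1 from 235975830 to 236065109, - strand), the nidogen that joins laminin to collagen IV, was 9.34, 7.88 and 10.9 FPKM in the controls and 7.64, 6.28 and 7.84 FPKM after OFD1 depletion. The groups did not overlap, by a margin of less than 0.1 FPKM between 7.88 and 7.84. The means were 9.38 ± 1.52 FPKM without and 7.26 ± 0.849 FPKM with depletion (SD, n = 3 each), and the log2 fold change was -0.36 (95% interval -0.71 to -0.01, limma adjusted p = 0.155). NID1 did not pass the threshold in any of the 18 alternatives, where its log2 fold change lay between -0.51 and -0.25.

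VCAN (ENSG00000038427, chromosome 5 from 83471618 to 83582303, + strand), encoding versican, was 137, 113 and 137 FPKM in the controls and 127, 86.7 and 132 FPKM after OFD1 depletion. The groups overlapped, with the low value of OFD1-depleted replicate 2 apart from the other 5. The log2 fold change was -0.18 (95% interval -0.56 to 0.20, limma adjusted p = 0.529), and it was 0.01 without OFD1-depleted replicate 2.

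**Figure D1:**
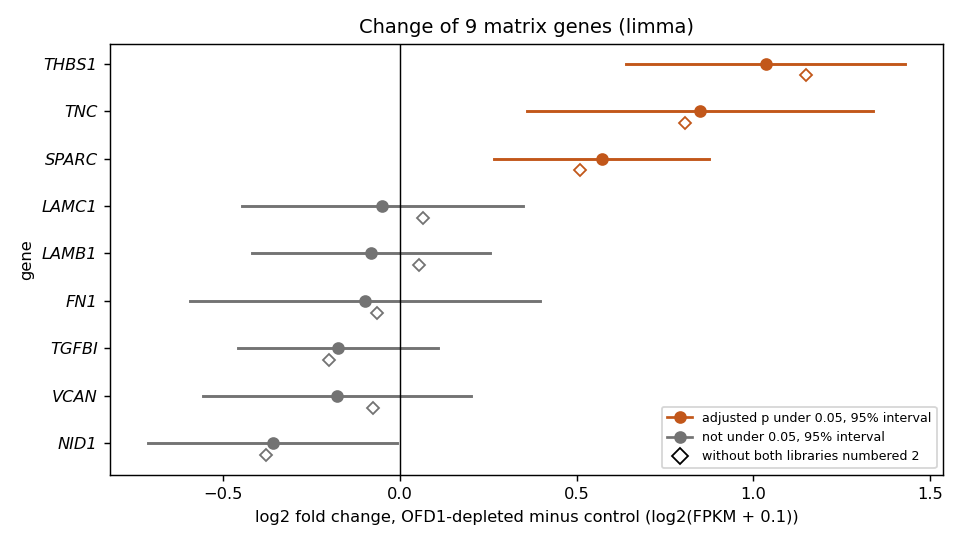
Log2 fold change of the 9 tested matrix genes (OFD1-depleted minus control, filled circles) with the 95% interval from limma, orange where the adjusted p-value was under 0.05, and the value without both libraries numbered 2 (open diamonds). The intervals of THBS1, TNC and SPARC lie above 0, that of NID1 just below 0, and those of the other 5 include 0.

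The promoters of the 3 genes that rose are shown with that of FN1, the most abundant gene, and that of THBS2, the nearly silent paralog of THBS1, so that their letters can be set side by side. Each sequence is the 250 bases before the RefSeq start site (GRCh38.p14), read 5′ to 3′ on the strand of the gene, and in all 10 genes that site was the start of the canonical transcript in GENCODE version 44. The windows are chr15:39580829-39581078 on the + strand for THBS1, chr9:115118158-115118407 on the - strand for TNC, chr5:151686916-151687165 on the - strand for SPARC, chr2:215436069-215436318 on the - strand for FN1 and chr6:169253847-169254096 on the - strand for THBS2. Capitals mark matches, on either strand, to 7 words, and neighbouring matches may overlap. The TATA box was searched as TATAAA and the site of AP-1 as TGANTCA. The cyclic AMP response element was searched as TGACGTCA and the site of TEAD factors as GGAATG. That of SMAD factors was searched as CAGACA and the GC box as GGGCGG. The last word was the CArG box, the site of serum response factor.
THBS1: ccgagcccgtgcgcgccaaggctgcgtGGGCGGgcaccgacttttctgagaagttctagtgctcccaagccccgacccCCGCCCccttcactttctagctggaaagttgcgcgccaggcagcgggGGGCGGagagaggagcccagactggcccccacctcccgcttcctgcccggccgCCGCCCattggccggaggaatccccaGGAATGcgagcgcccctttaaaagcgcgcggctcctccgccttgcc
TNC: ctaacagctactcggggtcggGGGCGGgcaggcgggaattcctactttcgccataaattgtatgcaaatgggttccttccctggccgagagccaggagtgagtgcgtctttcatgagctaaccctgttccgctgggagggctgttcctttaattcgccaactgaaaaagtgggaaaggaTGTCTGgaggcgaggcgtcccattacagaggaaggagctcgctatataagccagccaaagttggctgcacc
SPARC: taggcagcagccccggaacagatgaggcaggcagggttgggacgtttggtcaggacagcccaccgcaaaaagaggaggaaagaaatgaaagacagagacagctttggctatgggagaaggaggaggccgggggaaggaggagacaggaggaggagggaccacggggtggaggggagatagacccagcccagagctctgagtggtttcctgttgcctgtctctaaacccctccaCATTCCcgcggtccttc
FN1: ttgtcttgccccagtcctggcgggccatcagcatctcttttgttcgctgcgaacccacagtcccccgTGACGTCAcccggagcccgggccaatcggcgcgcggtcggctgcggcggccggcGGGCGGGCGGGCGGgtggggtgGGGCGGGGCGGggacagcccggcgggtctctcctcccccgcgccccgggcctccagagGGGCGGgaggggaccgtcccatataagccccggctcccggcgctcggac
THBS2: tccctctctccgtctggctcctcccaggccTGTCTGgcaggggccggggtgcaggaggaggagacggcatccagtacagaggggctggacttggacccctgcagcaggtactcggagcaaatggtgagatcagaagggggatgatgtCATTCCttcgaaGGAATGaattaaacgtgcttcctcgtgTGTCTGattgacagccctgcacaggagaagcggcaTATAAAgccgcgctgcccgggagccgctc

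These promoters differed in their letters even among the genes that rose together. A GGAATG match lay 46 to 41 bases before the start site of THBS1, and matches in the reverse orientation lay 17 to 12 bases before that of SPARC and 103 to 98 bases before that of THBS2, which held another at 91 to 86 bases. This word was found in 3 of the 10 matrix promoters and in 11.9% of the 34788 promoters of that length. TNC held no such match, and held a reverse match to CAGACA 71 to 66 bases before its start site, a word present in 13.6% of all promoters. GGGCGG was found in 8 of the 10 (all but SPARC and THBS2) and in 42.6% of all promoters, and FN1 held 6 matches to it. FN1 held TGACGTCA 183 to 176 bases before its start site, a word found in 1.64% of all promoters. Among the 10, TATAAA was found in THBS2 (10.8% of all promoters), and TGANTCA (6.59%) and the CArG box (1.17%) were found in none. TATAAA was searched as an exact word, so stretches such as tatataa in TNC and catataa in FN1 did not count. The C and G share was 69.6% in THBS1, 54.8% in TNC, 59.2% in SPARC, 76.4% in FN1 and 60% in THBS2, where the median over all promoters was 58%.

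Ratios between genes within a library do not change when all its values are scaled by a single factor. They can change under quantile normalization. Of 6 pairs planned, 5 gave a ratio, since THBS2 was listed at 0 in 2 libraries. FN1 per TNC was 63.2, 78.4 and 74.6 in control and 36.8, 36.4 and 38.2 in OFD1-depleted replicates, a fall of the log2 ratio by 0.95. VCAN per TNC was 4.67, 6.58 and 4.86 in control and 2.51, 2.63 and 2.65 in OFD1-depleted replicates, with a log2 difference of -1.03. In both ratios the 3 OFD1-depleted values were close together and below every control value. NID1 per LAMC1 was 0.113, 0.114 and 0.126 in control and 0.0866, 0.110 and 0.0881 in OFD1-depleted replicates, with a log2 difference of -0.31 and no overlap of the groups. These 3 differences had p = 0.1 each in a two-sided exact permutation test, the smallest possible, and 0.167 after Benjamini-Hochberg adjustment over the 5 ratios. They restate the fold changes given above for the genes of each pair and are not separate results. FN1 per TNC and VCAN per TNC also share TNC.

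The remaining ratios overlapped between the groups. LAMB1 per LAMC1 was 1.07, 1.22 and 1.06 in control and 1.08, 1.16 and 1.03 in OFD1-depleted replicates, with overlapping groups and a log2 difference of -0.03. FN1 per LAMC1 was 22.4, 19.5 and 24.1 in control and 21.1, 21.0 and 21.4 in OFD1-depleted replicates, with a log2 difference of -0.05. The exact permutation test gave p = 0.7 for each, and 0.7 after adjustment. With each library left out in turn, the log2 difference of LAMB1 per LAMC1 lay between -0.08 and 0.03, and that of FN1 per LAMC1 between -0.13 and 0.02.

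The libraries numbered 2 stood apart in these genes. In control replicate 2 all 9 tested matrix genes were below the control mean, with a median deviation of -0.18 on the log2 scale, and in OFD1-depleted replicate 2 all 9 were below the OFD1-depleted mean, with a median deviation of -0.38. In the other 4 libraries 0 to 2 of the 9 were below the mean of their group. OFD1-depleted replicate 2 was low in genes with long transcripts in general. Its median deviation was -0.30 over the 1985 tested genes with a canonical mRNA over 6 kb and 0.23 over the 2391 genes with one under 1.5 kb. In control replicate 2 the same medians were -0.02 and 0.10. The mRNAs of FN1, THBS1, TNC, LAMC1 and VCAN are over 6 kb and that of TGFBI, the shortest, is 2.71 kb. Control replicate 2 also had the lowest mitochondrial share of the summed FPKM, 8.66% against 13.1% to 19.3% in the other libraries. The part of transcript length or of the mitochondrial share in the low values was not tested.

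Without both libraries numbered 2, a comparison added after the data were seen, the same 3 genes passed the threshold. Their log2 fold changes were then 1.15 for THBS1, 0.81 for TNC and 0.51 for SPARC (limma adjusted p = 0.000402, 0.000982 and 0.0041). LAMB1 and LAMC1 turned to 0.05 and 0.06, and FN1 was at -0.06, none past the threshold. In the fit of all 6 libraries, each gene was set against the median change of all genes of the same transcript length class. There the log2 fold change of THBS1 was 1.19 higher, that of TNC 1.01 higher and that of SPARC 0.64 higher. FN1 (0.06), LAMC1 (0.11), LAMB1 (-0.01) and VCAN (-0.02) lay near the median of their classes, and NID1 was 0.29 below it.

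Over the 6 libraries, the genes outside the set whose log2 levels followed FN1 most closely were ANKRD10-IT1 (Pearson r = 0.991), NID2 (0.991) and LMTK2 (0.988), given as a description over 6 libraries that share depth and scaling. NID2, the second nidogen, was 18.5, 13.6 and 21.2 FPKM in the controls and 19.6, 12.9 and 20.2 FPKM after OFD1 depletion, and it too was lowest in the libraries numbered 2. Within the set, r with FN1 was 0.959 for LAMC1, 0.929 for VCAN and 0.867 for LAMB1. It was 0.431 for TNC, 0.208 for THBS1 and 0.046 for SPARC.

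Other genes of the matrix were read from the same fit in lists written by function, of which 54 genes were tested and 19 passed the threshold (35.2%, against 17% of all genes tested), 6 higher and 13 lower. Of the genes past the threshold 68.4% were lower in these lists and 70.1% among all genes. Among other matricellular genes, 6 of 20 were tested, 2 rose and 1 fell, with a median log2 fold change of 0.23. Those past the threshold were 50% of the genes tested in this list, against 17% of all genes tested. POSTN, encoding periostin, a fasciclin-domain protein related to the product of TGFBI, rose from 78.7 ± 3.38 to 215 ± 35.3 FPKM (SD, n = 3 each), which is 1.43 on the log2 scale (limma adjusted p = 9.0e-05). CCN3 rose from 14.0 ± 0.898 to 25.3 ± 1.82 FPKM (0.85, limma adjusted p = 0.000951). CCN1, a secreted integrin ligand, fell from 645 ± 25.7 to 476 ± 23.9 FPKM (-0.44, limma adjusted p = 0.0423). That call was lost in 8 of 18 alternatives (adjusted p up to 0.185). Among them were those without control replicate 1, 2 or 3 or OFD1-depleted replicate 1 or 3. CCN2, the most abundant of this list, averaged 986 ± 65.6 FPKM without and 1292 ± 160 FPKM with depletion without passing the threshold (0.38, limma adjusted p = 0.116). It did pass without OFD1-depleted replicate 2 (adjusted p = 0.0173), without both libraries numbered 2 (0.00937) and with array weights (0.00783), and it was at 0.15 after quantile normalization. THBS3, another thrombospondin gene, was at -0.21 and did not pass.

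Of the 10 other laminin chain genes, 5 were tested and 0 passed the threshold in limma, 1 of them at an unadjusted p under 0.05. Under TPM scaling, with array weights, without control replicate 2 and without both libraries numbered 2, 1 passed, lower in OFD1-depleted cells, which in the last of these was LAMA5 (-0.55, adjusted p = 0.0273). LAMA4 (-0.38) and LAMA5 (-0.45) were the only alpha chains tested, a kind of chain that every trimer with LAMB1 and LAMC1 needs. The beta chains LAMB2 and LAMB3 were at -0.34 and -0.38. Of the 5 chains tested, 4 were lower and 1 was higher in OFD1-depleted cells. The median of the 5 was -0.38, against -0.03 for all genes tested. LAMA1 and LAMC3 were listed at 0 in all samples. Of 12 other basement membrane genes, 11 were tested and 1 fell (9.09%, against 17% of all genes tested that passed in either direction). HSPG2, encoding the proteoglycan perlecan, fell from 26.5 ± 7.14 to 15.6 ± 3.53 FPKM (-0.75, limma adjusted p = 0.0374), with groups that overlapped. The call was lost in 9 of 18 alternatives (adjusted p up to 0.209), among them those without control replicate 1 or 3 or OFD1-depleted replicate 2 or 3. COL4A2, the most abundant of that list, was at 0.27 and did not pass, with 0.095 without control replicate 2 and 0.41 without control replicate 3.

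Of 21 listed receptors for these proteins, 16 were tested, 7 fell and 2 rose, with a median log2 fold change of -0.40. Those past the threshold were 56.2% of the receptors tested, against 17% of all genes tested. The lower genes were 77.8% of the receptors past the threshold, near the 70.1% among all genes. SDC4, the syndecan that acts with integrins on fibronectin, fell from 89.2 ± 4.73 to 25.9 ± 1.73 FPKM (-1.78, limma adjusted p = 1.1e-05). SDC1 fell from 55.0 ± 7.82 to 22.0 ± 2.58 FPKM (-1.32, limma adjusted p = 0.00016), and ITGB5 from 120 ± 15.7 to 63.6 ± 6.12 FPKM (-0.91, limma adjusted p = 0.00121). The other genes past the threshold are named here after their values were seen. They were 4 alpha subunits that fell and the rising beta subunits ITGB3 (1.40) and ITGB8 (0.97). These beta subunits were low, ITGB3 going from a mean of 1.29 to 3.56 FPKM and ITGB8 from 2.08 to 4.27 FPKM (limma adjusted p = 0.00125 and 0.00851). The laminin-binding alpha subunits were ITGA3 (-0.94), ITGA6 (-0.89) and ITGA7 (-0.94), with limma adjusted p = 0.00201, 0.00563 and 0.00125. The fibronectin-binding alpha subunit ITGA5 lay near the threshold (-0.52, limma adjusted p = 0.044). ITGB1, the beta subunit that pairs with these alpha subunits and the most abundant receptor, averaged 751 ± 18.4 FPKM without and 800 ± 178 FPKM with depletion (0.07, limma adjusted p = 0.839), and it turned to -0.08 after TPM scaling and to -0.19 after quantile normalization. Without OFD1-depleted replicate 2 it was at 0.27, and without both libraries numbered 2 at 0.26, where it passed the threshold (adjusted p = 0.0474).

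Of 12 genes of hyaluronan, the sugar polymer that versican binds, and of the relatives of versican, 4 were tested, 1 rose and 2 fell. Those past the threshold were 75% of the genes tested in this list, against 17% of all genes tested. HAS2, a hyaluronan synthase, rose from 1.98 ± 0.141 to 4.73 ± 0.853 FPKM (1.20, limma adjusted p = 0.00135). The hyaluronan receptors HMMR (-0.99, limma adjusted p = 0.00171) and CD44 (-0.52, limma adjusted p = 0.0214) fell, and HMMR is also a mitotic spindle gene. The call of CD44 was lost without control replicate 1 or 3 and with no filter (adjusted p up to 0.106). HAS3, another synthase, was at 0.14 and did not pass (limma adjusted p = 0.733). The versican relatives ACAN, BCAN and NCAN and the link protein HAPLN1 were at or below 0.0628 FPKM. Of 15 genes for assembly and cross-linking of fibronectin and collagen, 12 were tested, 2 fell and 1 rose (25%, against 17% of all genes tested). TGM2, a transglutaminase that cross-links fibronectin, fell from 346 ± 28.4 to 247 ± 20.5 FPKM (-0.49, limma adjusted p = 0.0294). P3H1, a prolyl hydroxylase of collagen, fell (-0.55, limma adjusted p = 0.0311), and EFEMP1, a fibulin, rose (0.39, limma adjusted p = 0.0449). None of these 3 calls held throughout. Of 18 alternatives, 6 lost TGM2, 7 lost P3H1 and 10 lost EFEMP1, with adjusted p up to 0.151, 0.153 and 0.183. Each was lost without control replicate 1, without control replicate 3, without OFD1-depleted replicate 1 and without OFD1-depleted replicate 3, and TGM2 and EFEMP1 also without control replicate 2.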

How the data were processed

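Per the labels and the study's methods, the authors sequenced paired-end directional libraries, aligned the reads with HISAT2 (version 2.0.5 in the submitters' processing notes) to the human genome (GRCh38, Ensembl version 94), then deposited 1 FPKM value per gene and sample, computed by StringTie. Whether strand was used in counting is not given in the sources used here. FPKM removes depth and length, so no count test was run. Of 67130 genes, 6464 on alternative contigs were left out. Low values of single-exon genes (18.4% to 21.3% within 0.03 of a whole multiple) gave an approximate depth.

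Groups came from the sample titles. limma (version 3.58.1, R 4.3.3) was fitted with a variance trend to log2(FPKM + 0.1), two-sided, for genes averaging 1 FPKM or more, and was tested on simulated data. Fold changes on this scale understate the change of low genes. Ratios were compared by exact permutation (Python 3.11.15, scipy 1.17.1). Alternatives were other pseudocounts (1 and 0.01), filters (none, 5 FPKM), scalings, variance models, the replicate block and each library left out. Promoter sequences came from RefSeq (GRCh38.p14), where all 10 genes matched by symbol, and mRNA lengths from GENCODE version 44, where 99.8% of tested genes had one and 92.7% of the table's matched genes had identical coordinates.

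The members and lists were chosen with earlier results of these data known. The genes named are the 10 members, OFD1, in each related list the 3 called genes with the smallest p and its most abundant gene, and the 3 genes most like FN1. Other genes were named after their values were seen. Some genes of these lists are not reported here by name.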

Additional observations from a re-analysis of the deposited data

How the results depend on the processing

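THBS1, TNC and SPARC were higher in OFD1-depleted cells under all 18 alternatives, and THBS1 passed the threshold in 17, SPARC in 13 and TNC in 11. Over these alternatives the adjusted p-value ranged from 1.8e-05 to 0.0527 for THBS1, from 0.00226 to 0.138 for SPARC and from 0.000327 to 0.168 for TNC. None of the other 6 tested matrix genes passed under any alternative. With no filter on low values, which tests 28501 genes, 0 of the 9 passed (the limma adjusted p of 0.0527 for THBS1 being the nearest). In that fit 1083 of all genes and 10 of the related genes passed. With a library left out, 1 to 3 matrix genes passed (1 without OFD1-depleted replicate 1), 12 to 21 related genes (12 without control replicate 1 or 3) and 1111 to 2818 of all genes (1111 without control replicate 3, 1155 without control replicate 1). Array weights gave 3956 of all genes and leaving out both libraries numbered 2 gave 3290.

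Of the 27 genes and 5 ratios recomputed under the alternatives, FN1, LAMB1, LAMC1, VCAN, ITGB1 and 2 ratios turned direction, none of them past the threshold in the fit reported. LAMB1 went to 0.037 with array weights and 0.053 without both libraries numbered 2. LAMC1 went to 0.0018 with median-of-ratios scaling, 0.064 with array weights and 0.065 without those libraries. ITGB1 went to -0.081 with TPM scaling and -0.19 with quantile normalization, and passed the threshold without both libraries numbered 2 (0.26, adjusted p = 0.0474). With each library left out, the log2 fold change ranged from -0.28 to 0.12 for FN1, from -0.18 to 0.084 for LAMB1, from -0.16 to 0.16 for LAMC1, from -0.29 to 0.015 for VCAN and from -0.045 to 0.27 for ITGB1. The log2 difference ranged from -0.078 to 0.034 for LAMB1 per LAMC1 and from -0.13 to 0.021 for FN1 per LAMC1. Quantile normalization moved FN1 per TNC to -1.16 and FN1 per LAMC1 to -0.20, and NID1 per LAMC1 from -0.31 to -0.18. The cause of these shifts was not tested.

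The groups share replicate numbers, which were not taken as pairs. Deviations from the group means correlated at 0.011 to 0.058 across genes between samples with the same number, and 4 of 6 samples correlated best with their own number. With the number as a replicate block 2296 genes passed, 1945 of them also without the block, as did THBS1, TNC, SPARC and 23 related genes, CCN2 among them (adjusted p = 0.0385).

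The 9 tested genes had at least about 1609 estimated fragments per library, and THBS2 was too low to be compared. These estimates cover counting error only.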
